A study of Mus musculus with 32 samples.

Results

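The Slc22 and Slco genes encode the organic ion transporters of the plasma membrane. Genes were taken by a symbol of Slc22a or Slco followed by a number that does not mark a pseudogene. The account covers 40 of the 27179 genes in the deposited table, 25 of them Slc22 genes and 15 Slco genes. The choice used no measured value. All 40 were matched by Entrez ID to the RefSeq annotation of the mouse assembly GRCm38.p6, and all 40 passed the filter on low values, which asked for a level of 1 CPM (counts per 1000000 reads) or more in 2 or more of the 8 libraries. RefSeq annotates Slc22a13b as a transcribed pseudogene and Slco6b1 as a long non-coding RNA.

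Slc22 proteins carry organic cations, organic anions, urate, carnitine and other small molecules across the cell membrane, some driven by the membrane potential and others by exchange for an ion on the far side. Slco proteins, also called organic anion transporting polypeptides, take up bile acids, thyroid hormones, steroid conjugates and many drugs without sodium. The best known of them load hepatocytes and proximal tubule cells with the compounds that liver and kidney clear, and a few work at the blood-brain barrier or the choroid plexus.

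The signal comes from MeDIP-seq, which sequences the DNA fragments bound by an antibody to 5-methylcytosine (5mC), the main methylated base of mammalian DNA. Brain, liver, kidney and heart of mice were each kept formalin-fixed and paraffin-embedded (FFPE) or flash-frozen. The labels list 32 samples in 16 groups of 2, of which 16 samples are 5mC precipitates and 16 are unselected Input DNA, and give no strain, age or sex. The table holds 8 columns, 1 per organ and preservation, named without antibody or replicate number, and each is called a library here and read as a 5mC value. In the text a level is a CPM value in 1 library and a difference is a difference in log2 CPM between groups of libraries. A higher level means more precipitated reads counted on a gene. CPM values were computed from reads recovered from the deposited log2 values and the authors' library scaling, and differences are of the deposited log2 values themselves. The sources used here do not say whether exons or the whole gene body were counted, so levels were not scaled for gene length. A rank of levels between genes is therefore not a rank of methylation. A whole organ was measured, so a change in some of its cells and a smaller change in all of them cannot be told apart.

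Reads on the 27179 genes totalled 2164158 (FFPE kidney) to 3699218 (frozen liver) per library, and a count of 0 allows a level of up to 0.876 to 1.42 CPM, at 3 reads, which covers counting error only. The transporter genes had 2 to 559 reads per library, none was at 0 reads, and 6 of them (Slc22a19, Slc22a26, Slc22a27, Slc22a29, Slc22a30 and Slco1a1) had fewer than 10 reads in some library. The frozen kidney library stood apart, with 0 reads on 2999 genes against 880 to 2380 in the other libraries, so counts without the kidney libraries are given as well. Marker genes were listed, 8 each for hepatocytes, proximal tubule, neurons and cardiomyocytes and 5 each for endothelium and leukocytes. The lists of 8 were checked against the organ labels. In liver, 7 of 8 hepatocyte genes were called lower than in the other organs, against 7.42% of all tested genes. In heart 3 of 8 cardiomyocyte genes were called lower, against 1.97%. In brain 2 of 8 neuronal genes were called lower, against 12.8%, and neuronal differences were negative for 5 and positive for 3. In kidney 0 of 8 proximal tubule genes were called, against 0.897% of all tested genes called higher and 0.566% lower. The mean log2 CPM lay above that of the median gene for 23 of the 40 transporter genes. It ran from percentile 20.0 of all genes (Slc22a26) to percentile 96.0 (Slco3a1). These percentiles rank reads per gene, which also depend on gene length. Per kb of gene span the mean was 0.479 CPM for Slco3a1, against 5.63 CPM for Slc22a17.

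**Figure D1:**
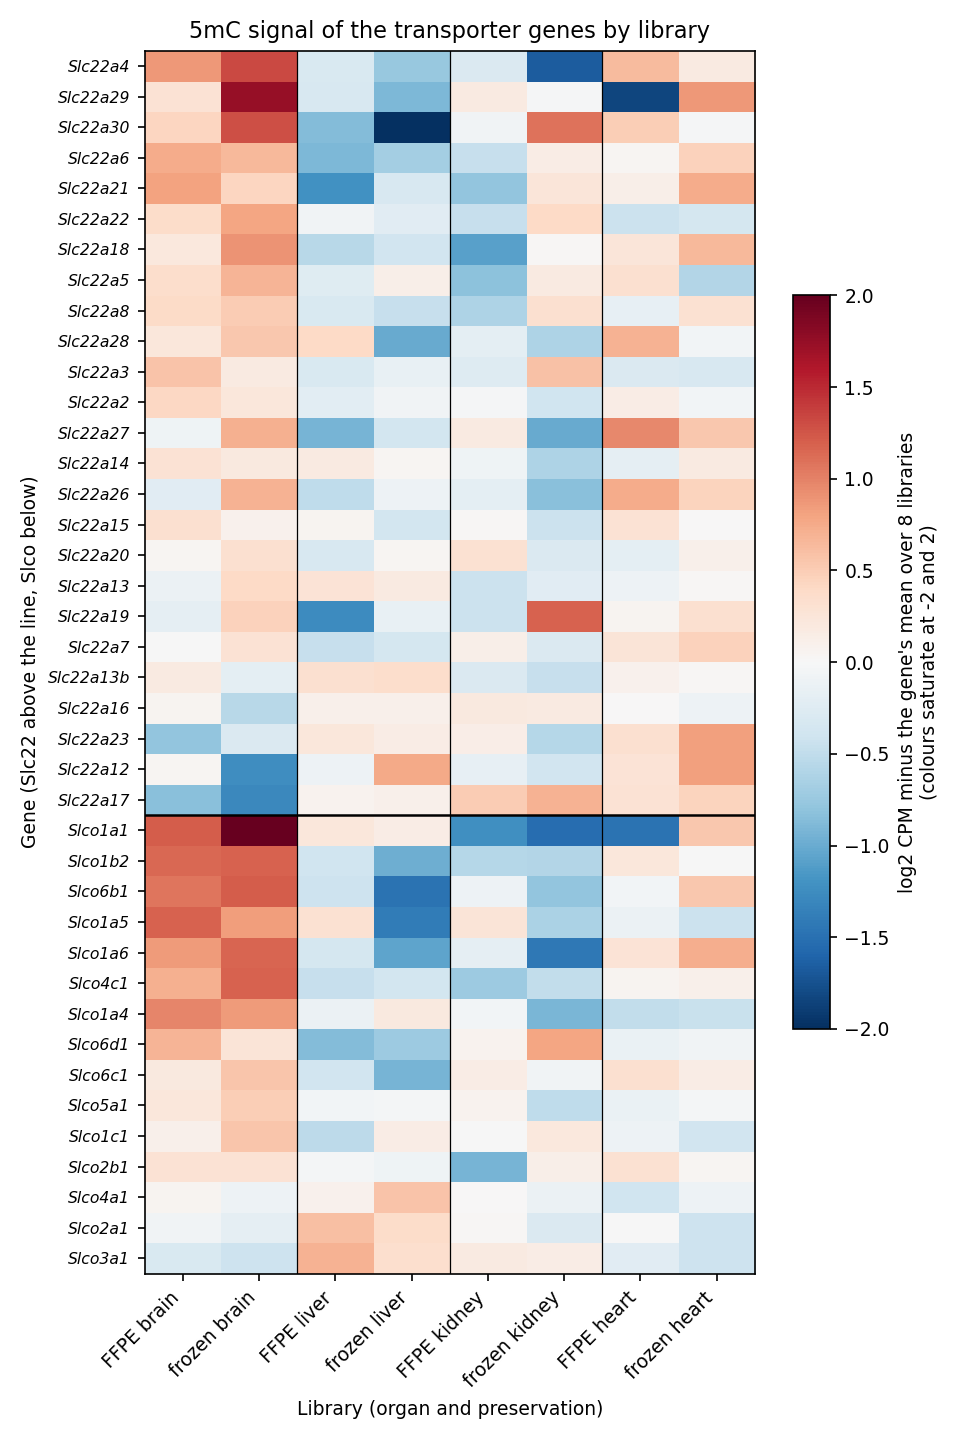
Each cell is the log2 CPM of 1 transporter gene (vertical axis) in 1 library (horizontal axis, FFPE left of frozen within each organ) minus that gene's mean over the 8 libraries, with red for higher and blue for lower. Genes run from the largest to the smallest brain difference within Slc22 (25 genes) and Slco (15 genes). The 2 brain columns are red for most genes and blue at the foot of the Slc22 block, where Slc22a17 lies.

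The brain comparison asked which transporter genes carried more or less 5mC signal in brain than in the mean of liver, kidney and heart. Brain was the organ in which most of them were high. Of the 40 genes, 8 were called higher and 3 lower in brain (limma, Benjamini-Hochberg adjusted p under the threshold of 0.05), against 8.61% of all tested genes called higher and 12.8% called lower. The median difference was 0.49, against 0.11 over all tested genes, and 32 of the 40 differences were positive. Both brain libraries lay above all 6 others for 14 of the genes and below them for 1, against 16.5% and 11.7% of all tested genes. Brain had the highest of the 4 organ means for 27 of the 40 genes (67.5%), against 37.1% of all tested genes. The median difference was 0.40 among FFPE libraries and 0.51 among frozen libraries, and 33 of the 40 genes had the same sign in both, against 76.9% of all tested genes.

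All 8 calls of higher signal in brain were lost when either brain library was left out. Without the FFPE brain library 0 genes were called higher and 2 lower, and without the frozen brain library 0 were called in either direction, while the median difference was 0.51 and 0.40. Without both kidney libraries 14 genes were called higher and 4 lower, without the frozen kidney library 14 and 3, and without the frozen heart library 6 and 1. Centring each library on its median gene moved the median brain difference of all genes from 0.11 to -0.04 and that of the transporter genes to 0.34, and left 7 called higher and 4 lower. Leukocyte genes moved with this result, with 1 of 5 called higher in brain (Ptprc, difference 1.65), against 8.61% of all tested genes. Their summed level was 199.5 to 207 CPM in brain, against 74.05 to 173 CPM in the other libraries. Hepatocyte genes did too, with 4 of 8 called higher and a summed level of 411 to 432 CPM in brain, against 121 to 354 CPM elsewhere. Endothelial genes had 1 of 5 called higher (Kdr, 0.73) and 1 of 5 negative, with a summed level of 384 to 416 CPM in brain, against 255 to 420 CPM elsewhere. Proximal tubule genes had 1 of 8 called higher (Slc5a12, 1.81) and 3 of 8 negative, with 784 to 789 CPM in brain, against 608 to 744.5 CPM elsewhere. Of the neuronal and cardiomyocyte genes 0 were called higher. The part of any of these lists in the result was not tested.

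**Figure D2:**
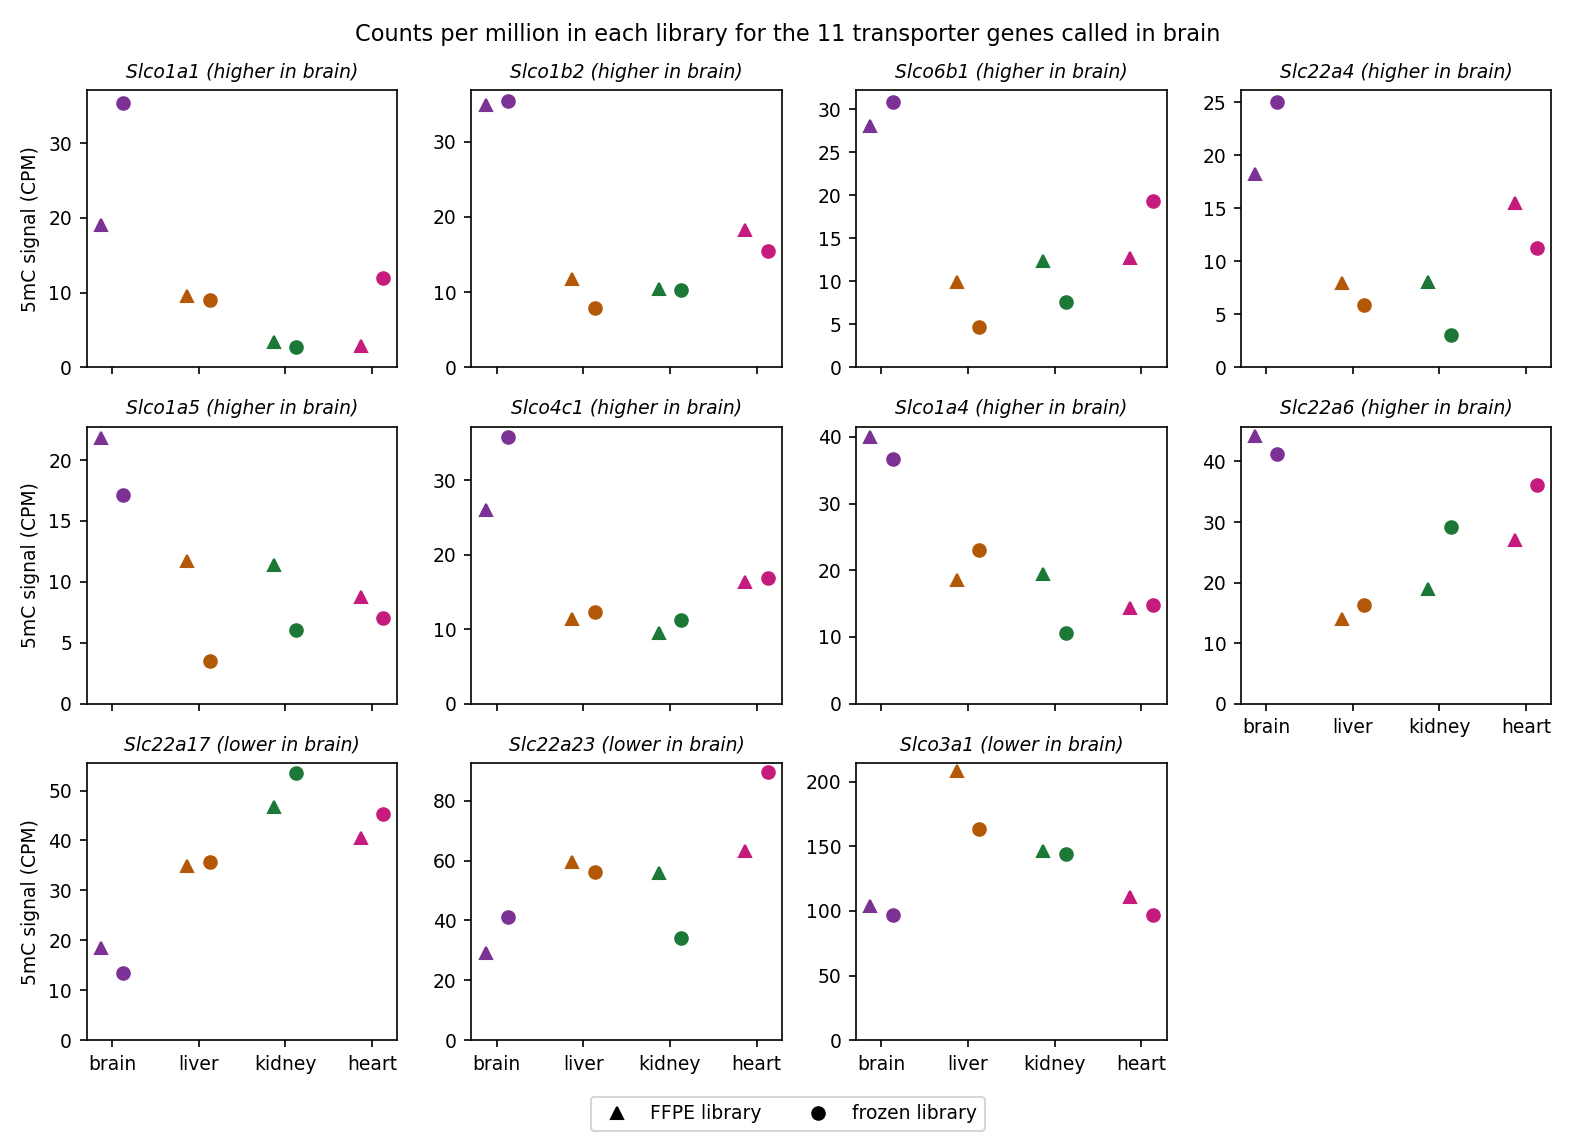
Each panel gives the level in CPM (vertical axis, from 0) of 1 of the 11 transporter genes called in brain, in each of the 8 libraries, with organs along the horizontal axis, triangles for FFPE and circles for frozen libraries. In the 8 panels of genes called higher, both brain points lie above all 6 others, and in the Slc22a17 panel both lie below.

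The Slco1 genes take up bile acids, bilirubin conjugates, steroid sulfates, thyroid hormones and drugs, and they formed the group with the highest differences in brain. All 6 genes of the table with an Slco1 symbol lie in 1 cluster on chromosome 6 (chr6:141524354-142322981, 798.6 kb). In brain 4 of the 6 were called higher and 0 lower, against 8.61% and 12.8% of all tested genes. The median difference was 1.34, against 0.11 over all tested genes. No gene of the table carries the symbol Slco1a7 or Slco1a8, so neither was counted under that name, and other names for them were not searched. The 6 genes may therefore not be all the Slco1 genes in the table, and the counts and median hold for these 6 only. The members share long stretches of sequence, and the sources used here do not say how reads with several matches were treated, so the split of signal between them is uncertain.

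Slco1b2, the hepatocyte transporter that takes up bilirubin conjugates, bile acids and statins (chr6:141629452-141686646), had 34.9 CPM in FFPE brain and 35.4 CPM in frozen brain, against 11.7 in FFPE liver, 7.89 in frozen liver, 10.4 in FFPE kidney, 10.3 in frozen kidney, 18.3 in FFPE heart and 15.4 in frozen heart. Both brain libraries were far above the rest, the heart pair came next, and liver, where the protein works, was among the lowest. The difference was 1.55 ± 0.32 (SE), 2.93-fold (limma adjusted p = 0.0036). Slco1a1, an uptake transporter of the hepatocyte's blood side (chr6:141907281-141946962), had 19.1 CPM in FFPE brain and 35.4 CPM in frozen brain, against 9.47 in FFPE liver, 9.06 in frozen liver, 3.31 in FFPE kidney, 2.73 in frozen kidney, 2.78 in FFPE heart and 11.9 in frozen heart. Both brain libraries were highest, and the pair of heart libraries lay far apart. Its difference, 2.21 ± 0.52 or 4.63-fold, was the largest among the 40 genes (limma adjusted p = 0.00755), on 7 to 85 reads per library.

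Slco1a4 carries organic anions and digoxin at the blood-brain barrier and in hepatocytes (chr6:141805438-141856284), and it had 40.0 CPM in FFPE brain and 36.7 CPM in frozen brain, against 18.6 in FFPE liver, 23.1 in frozen liver, 19.4 in FFPE kidney, 10.6 in frozen kidney, 14.3 in FFPE heart and 14.7 in frozen heart. Again the brain pair lay above all others, with no overlap, and frozen liver was the next highest. The difference was 1.23 ± 0.30, 2.34-fold (limma adjusted p = 0.00934). Slco1a5, known from the choroid plexus and the intestine (chr6:142234227-142322981), had 21.8 CPM in FFPE brain and 17.1 CPM in frozen brain, against 11.7 in FFPE liver, 3.51 in frozen liver, 11.3 in FFPE kidney, 6.07 in frozen kidney, 8.74 in FFPE heart and 7.02 in frozen heart. Brain was highest without overlap, and the liver pair spanned the whole of the remaining range. The difference was 1.35 ± 0.44, 2.54-fold (limma adjusted p = 0.0401), and the gene overlaps Iapp, so reads in the shared stretch are uncertain.

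The other two Slco1 genes did not pass the test. Slco1a6, a kidney member of the family (chr6:142085761-142186177), had 16.7 CPM in FFPE brain and 20.8 CPM in frozen brain, against 7.20 in FFPE liver, 4.38 in frozen liver, 8.03 in FFPE kidney, 3.34 in frozen kidney, 11.1 in FFPE heart and 15.4 in frozen heart. Brain was highest without overlap, and frozen kidney and frozen liver were lowest. The difference was 1.34 ± 0.47 (limma adjusted p = 0.0506). Slco1c1, the thyroxine transporter of brain capillaries and choroid plexus (chr6:141524354-141570177), had 31.1 CPM in FFPE brain and 42.5 in frozen brain, against 20.1 to 33.4 CPM in the other libraries, which overlap. Its difference was 0.44 ± 0.25 (limma adjusted p = 0.209), the smallest of the cluster. Without the FFPE brain library the limma adjusted p was 0.0575 for Slco1b2, 0.0885 for Slco1a1, 0.12 for Slco1a4 and 0.168 for Slco1a5, and without the frozen one 0.172, 0.217, 0.192 and 0.475 in the same order of genes. Over all alternatives the adjusted p ran from 0.000473 to 0.172 for Slco1b2, from 0.0002 to 0.217 for Slco1a1, from 0.000525 to 0.192 for Slco1a4 and from 0.0129 to 0.475 for Slco1a5. The call of Slco1a5 was also lost without the FFPE heart, the frozen heart or the frozen liver library, at adjusted p = 0.114, 0.0601 and 0.0701 by limma, and with no filter on low values, under quantile normalization and after centring on the median gene, at 0.0556, 0.08 and 0.0596.

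The neighbours on the chromosome were compared as well. The cluster and its flanks of 500 kb hold 18 tested genes that are not transporter genes by this rule, and 2 of them were called higher and 3 lower in brain, with a median difference of 0.26. These counts are near the 8.61% and 12.8% of all tested genes. The pair called higher were the predicted genes Gm10400 (2.11) and Gm6614 (1.26), the second of which lies between Slco1a1 and Slco1a6. Gm5724, between Slco1b2 and Slco1a4, had a difference of 0.89 (limma adjusted p = 0.126). The rule reads symbols only, so predicted genes inside the cluster, such as Gm6614 and Gm5724, may belong to the family. The 18 genes are therefore not a background known to be free of transporter genes. On the far side of the cluster Ldhb, a lactate dehydrogenase subunit, Cmas, the enzyme that activates sialic acid, and Sult6b2, a sulfotransferase, were called lower (-0.80, -0.89 and -0.66).

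**Figure D3:**
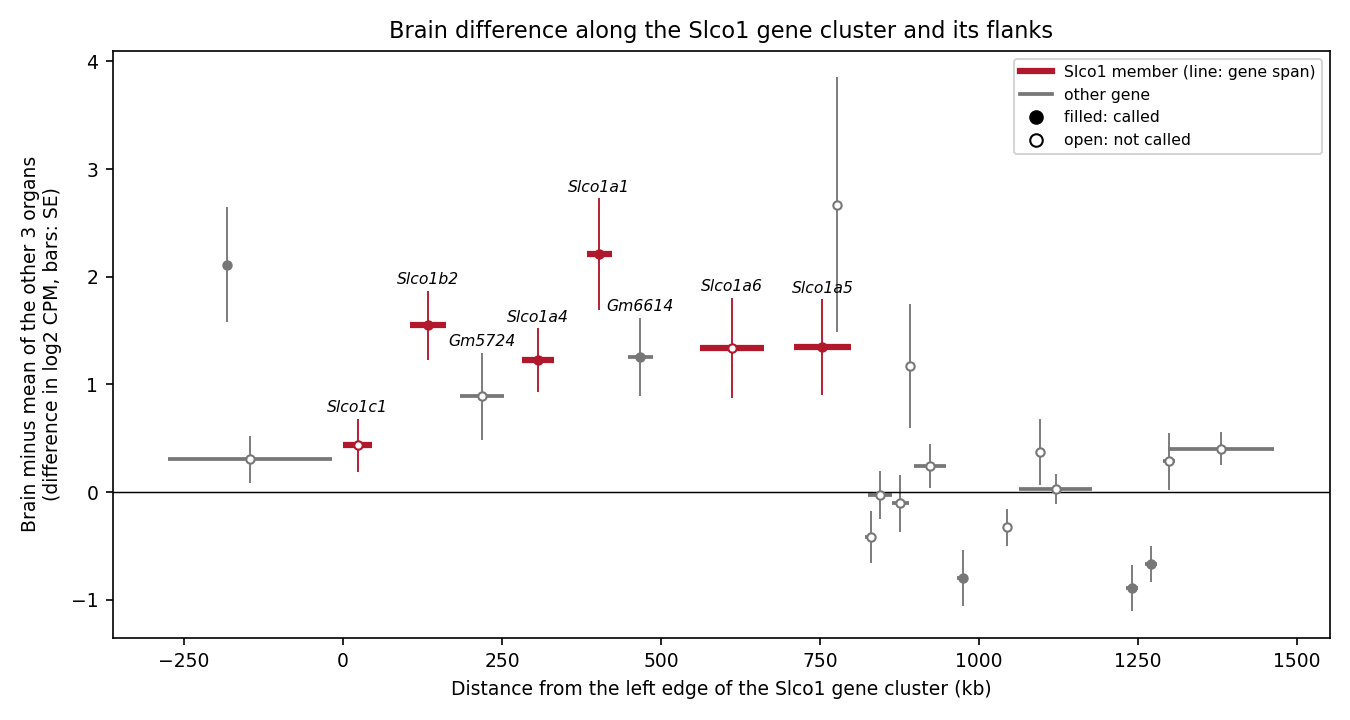
The vertical axis gives the brain difference in log2 CPM (points, with SE bars) of the 6 Slco1 genes (red) and the 18 other tested genes (grey) against distance in kb from the left edge of the cluster (horizontal axis), with a horizontal line for each gene's span and filled points for called genes. The Slco1 genes sit between 0.44 and 2.21, and the called genes to the right of the cluster sit between -0.89 and -0.66. Predicted genes inside the cluster are drawn in grey and may belong to the family.

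The promoter windows of Slco1b2 and Slco1a1, 250 bases before and 50 after the transcript start that the window table uses, hold no CG pair, the pair in which 5mC is mainly found in mammals. They are shown as the windows of the pair of genes with the highest brain differences, and CG would be in capitals (sequences from RefSeq, GRCm38.p6). That start lies at the end of the gene span for Slco1a1 and inside the span for Slco1b2. Windows without CG also belong to Slc22a13, Slc22a19 and Slc22a30, with brain differences of 0.20, 0.19 and 1.15. A count on the gene was measured, not the promoter, so the windows describe the genes and do not locate the signal.
Slco1b2 (chr6:141629268-141629567, plus strand): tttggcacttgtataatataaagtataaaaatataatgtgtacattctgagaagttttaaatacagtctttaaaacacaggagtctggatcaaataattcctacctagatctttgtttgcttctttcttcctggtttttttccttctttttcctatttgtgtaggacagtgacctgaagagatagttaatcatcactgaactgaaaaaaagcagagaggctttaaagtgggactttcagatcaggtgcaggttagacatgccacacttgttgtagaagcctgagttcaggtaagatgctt
Slco1a1 (chr6:141946913-141947212, minus strand): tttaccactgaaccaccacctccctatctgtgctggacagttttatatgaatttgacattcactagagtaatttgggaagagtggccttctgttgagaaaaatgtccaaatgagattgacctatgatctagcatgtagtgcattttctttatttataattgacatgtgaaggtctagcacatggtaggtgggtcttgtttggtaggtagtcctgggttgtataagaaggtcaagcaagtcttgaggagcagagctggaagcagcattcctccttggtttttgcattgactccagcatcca

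A second group high in brain was the pair Slco4c1 and Slco6b1, neighbours on chromosome 1. Slco4c1, a transporter of thyroid hormone and cardiac glycosides in the proximal tubule (chr1:96816270-96872193), had 26.0 CPM in FFPE brain and 35.9 CPM in frozen brain, against 11.4 in FFPE liver, 12.3 in frozen liver, 9.45 in FFPE kidney, 11.2 in frozen kidney, 16.3 in FFPE heart and 16.9 in frozen heart. Both brain libraries lay above all others, heart followed, and the kidney pair was lowest. The difference was 1.26 ± 0.31, 2.40-fold (limma adjusted p = 0.0106). Slco6b1, a member of the testis group of Slco6 genes (chr1:96906176-96997560), had 28.1 CPM in FFPE brain and 30.9 CPM in frozen brain, against 9.85 in FFPE liver, 4.67 in frozen liver, 12.3 in FFPE kidney, 7.59 in frozen kidney, 12.7 in FFPE heart and 19.3 in frozen heart. Brain was highest without overlap and frozen liver lowest. Its difference was 1.53 ± 0.39, 2.88-fold (limma adjusted p = 0.0124).

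Slco6c1, the third gene of that cluster (chr1:97059038-97128339), had a difference of 0.51 ± 0.30 (limma adjusted p = 0.232), and Slco6d1, elsewhere on the chromosome, one of 0.63 ± 0.27 (adjusted p = 0.106). The cluster has 4 other tested genes within 500 kb, and 3 of them were called higher in brain, against 8.61% of all tested genes. They were Panct2 (1.36), Gm7133 (1.38) and Gm7135 (1.34). Panct2 overlaps Slco4c1, so the reads of these genes may not be separate. Without the FFPE brain library the limma adjusted p was 0.0949 for Slco4c1 and 0.0877 for Slco6b1, and without the frozen one 0.288 and 0.307. Over all alternatives it ran from 0.00195 to 0.288 for Slco4c1 and from 0.00167 to 0.307 for Slco6b1.

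Among the Slc22 genes for organic anions, 1 of 13 was called higher in brain and 0 lower, against 8.61% and 12.8% of all tested genes, a share of higher calls near the background. The median difference was 0.41, against 0.11 over all tested genes. The gene called was Slc22a6, the anion exchanger on the blood side of proximal tubule cells that takes up p-aminohippurate and many drugs (chr19:8617996-8628299). It had 44.2 CPM in FFPE brain and 41.3 CPM in frozen brain, against 14.0 in FFPE liver, 16.4 in frozen liver, 18.9 in FFPE kidney, 29.1 in frozen kidney, 27.0 in FFPE heart and 36.2 in frozen heart. Brain lay above all other libraries, frozen heart came close, and the liver pair was lowest. The difference was 0.93 ± 0.25, 1.91-fold (limma adjusted p = 0.0147). Its neighbour and partner in renal secretion, Slc22a8, had a difference of 0.60 ± 0.24 (limma adjusted p = 0.0801), with 44.8 CPM in FFPE brain and 48.8 in frozen brain, both above the 22.2 to 42.8 CPM of the other libraries.

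The cluster of 8 Slc22 genes on chromosome 19 (chr19:7673075-8628299, 955.2 kb) runs from Slc22a19 to Slc22a6 and had a median difference of 0.56 in brain. Its 47 tested neighbours had a median of -0.20, with 2 called higher and 5 lower, against 8.61% and 12.8% of all tested genes. Slc22a26 to Slc22a30 in that cluster are close rodent copies for organic anions at 0.794 to 12.5 CPM. Their differences in brain ran from 0.31 (Slc22a26) to 1.35 (Slc22a29), with SE of 0.53 to 0.75, and none was called. Of the remaining anion genes, Slc22a22, a prostaglandin transporter of kidney, had 0.76 ± 0.28 (limma adjusted p = 0.0595), and Slc22a7, Slc22a13, Slc22a19 and Slc22a20 had 0.18 to 0.24. Slc22a12, the urate transporter of the proximal tubule, was the only negative one, at -0.80 ± 0.35 (limma adjusted p = 0.108), and its 2 brain libraries lay apart, at 23.6 CPM in FFPE and 9.59 CPM in frozen brain.

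The call of Slc22a6 was lost when the FFPE brain library was left out (limma adjusted p = 0.288) or the frozen one (0.109), and over all alternatives the adjusted p ran from 0.00339 to 0.288. Of the organic cation transporters, Slc22a2 of the kidney tubules had 0.42 ± 0.21 in brain (limma adjusted p = 0.155), and Slc22a3, which clears monoamines outside neurons and overlaps the non-coding gene C030013G03Rik, had 0.50 ± 0.21 (adjusted p = 0.101).

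Of the 4 genes for carnitine and related molecules, 1 was called higher and 0 lower in brain, against 8.61% and 12.8% of all tested genes. Their median difference was 0.76. The called gene was Slc22a4, the ergothioneine transporter. It lies at chr11:53983115-54030040 and had 18.2 CPM in FFPE brain and 25.0 CPM in frozen brain, against 7.95 in FFPE liver, 5.84 in frozen liver, 8.03 in FFPE kidney, 3.04 in frozen kidney, 15.5 in FFPE heart and 11.2 in frozen heart. Brain was highest without overlap, FFPE heart was close to FFPE brain, and frozen kidney was lowest. The difference was 1.46 ± 0.44, 2.75-fold (limma adjusted p = 0.0288), with 0.85 among FFPE and 2.07 among frozen libraries. The difference was 0.85 without the frozen brain library (limma adjusted p = 0.563), and the call was also lost without the FFPE brain, FFPE heart or frozen heart library (0.0721, 0.0808 and 0.0709) and under quantile normalization (0.0514), over a range of 0.00258 to 0.563. Its neighbours in the chromosome 11 cluster, the carnitine transporters Slc22a5 and Slc22a21, had 0.69 ± 0.48 and 0.82 ± 0.40 (limma adjusted p = 0.306 and 0.147), and Slc22a16, a carnitine transporter of testis, had -0.34 ± 0.17 (adjusted p = 0.173).

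Slc22a17 was the gene with the smallest p among the 40, and it went the other way. It encodes a receptor for a lipocalin that binds iron-carrying siderophores, and was first described as a transporter-like protein of brain (chr14:54906727-54913132). It had 18.5 CPM in FFPE brain and 13.3 CPM in frozen brain, against 34.9 in FFPE liver, 35.6 in frozen liver, 46.8 in FFPE kidney, 53.4 in frozen kidney, 40.5 in FFPE heart and 45.3 in frozen heart. The brain pair lay below all others, far from the next library, and kidney was highest. The difference was -1.42 ± 0.22, 2.67-fold lower in brain (limma adjusted p = 0.00063), with -1.12 among FFPE and -1.71 among frozen libraries. It was called without each of the other libraries in turn and lost the call without the frozen brain library, at an adjusted p of 0.0566 (range over all alternatives 4.51e-05 to 0.0566, limma).

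Slc22a23, an orphan transporter (chr13:34179158-34345275), had 29.3 CPM in FFPE brain and 41.3 CPM in frozen brain, against 59.5 in FFPE liver, 56.1 in frozen liver, 55.8 in FFPE kidney, 34.0 in frozen kidney, 63.1 in FFPE heart and 89.5 in frozen heart. Frozen heart was highest, and frozen kidney lay between the brain libraries, so the groups overlap. The difference was -0.72 ± 0.23, 1.65-fold lower in brain (limma adjusted p = 0.0328). Without the FFPE brain library it was -0.42 (adjusted p = 0.407), and the call was also lost without the frozen brain, frozen heart, FFPE liver or frozen liver library (limma adjusted p = 0.0945, 0.106, 0.0695 and 0.0528), over a range of 0.000565 to 0.407. Slco3a1, a transporter of prostaglandins and thyroid hormone (chr7:74275418-74554780), was the third gene called lower in brain, at -0.49 ± 0.14 or 1.40-fold (limma adjusted p = 0.021), and its levels are given with liver.

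The promoters of Slc22a17 and Slc22a23 hold 13 and 38 CG pairs, and that of Slc22a4, which was higher in brain, holds 29. They are shown against the windows without CG of the Slco1 genes, with CG in capitals (RefSeq, GRCm38.p6). The start used lies at the end of the gene span for Slc22a17 and inside the span for Slc22a23 and Slc22a4, so the Slc22a4 window is not that of its outermost start.
Slc22a17 (chr14:54913083-54913382, minus strand): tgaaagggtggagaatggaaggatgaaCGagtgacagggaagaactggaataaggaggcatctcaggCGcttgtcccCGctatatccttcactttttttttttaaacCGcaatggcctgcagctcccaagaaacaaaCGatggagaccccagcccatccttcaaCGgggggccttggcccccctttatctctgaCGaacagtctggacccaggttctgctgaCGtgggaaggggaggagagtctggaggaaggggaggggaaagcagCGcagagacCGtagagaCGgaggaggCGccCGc
Slc22a23 (chr13:34345169-34345468, minus strand): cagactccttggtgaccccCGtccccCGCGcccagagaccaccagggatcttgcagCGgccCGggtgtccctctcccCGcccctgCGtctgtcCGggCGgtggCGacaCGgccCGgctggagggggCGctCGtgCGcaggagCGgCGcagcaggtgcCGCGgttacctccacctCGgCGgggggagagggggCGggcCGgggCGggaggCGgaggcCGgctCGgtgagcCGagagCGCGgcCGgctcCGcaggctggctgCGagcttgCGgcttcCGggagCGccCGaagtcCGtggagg
Slc22a4 (chr11:54028055-54028354, minus strand): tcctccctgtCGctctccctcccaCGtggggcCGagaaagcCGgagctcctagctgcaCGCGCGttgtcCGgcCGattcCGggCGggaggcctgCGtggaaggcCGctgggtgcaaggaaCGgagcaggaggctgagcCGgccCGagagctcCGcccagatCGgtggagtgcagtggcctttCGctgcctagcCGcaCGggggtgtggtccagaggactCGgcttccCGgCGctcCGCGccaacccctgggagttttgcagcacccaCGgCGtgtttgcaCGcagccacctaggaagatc

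A window of this kind was listed for 35 of the 40 genes, and all of them were searched for CG, which reads the same on both strands. The median was 3 pairs, against 7 over 27025 genes with a window. The 8 genes called higher in brain held 0 to 29 pairs, with a median of 2.5, and the 25 genes not called held a median of 3. Of the genes called lower in brain, Slc22a17 and Slc22a23 held 13 and 38 pairs, and no window was listed for Slco3a1. Of the transporter genes, 7 had 15 or more pairs, against 35.2% of all windows. Besides Slc22a4, Slco4c1 was higher in brain with a CG-rich window, of 21 pairs. CG counts were not tested against the differences.

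**Figure D4:**
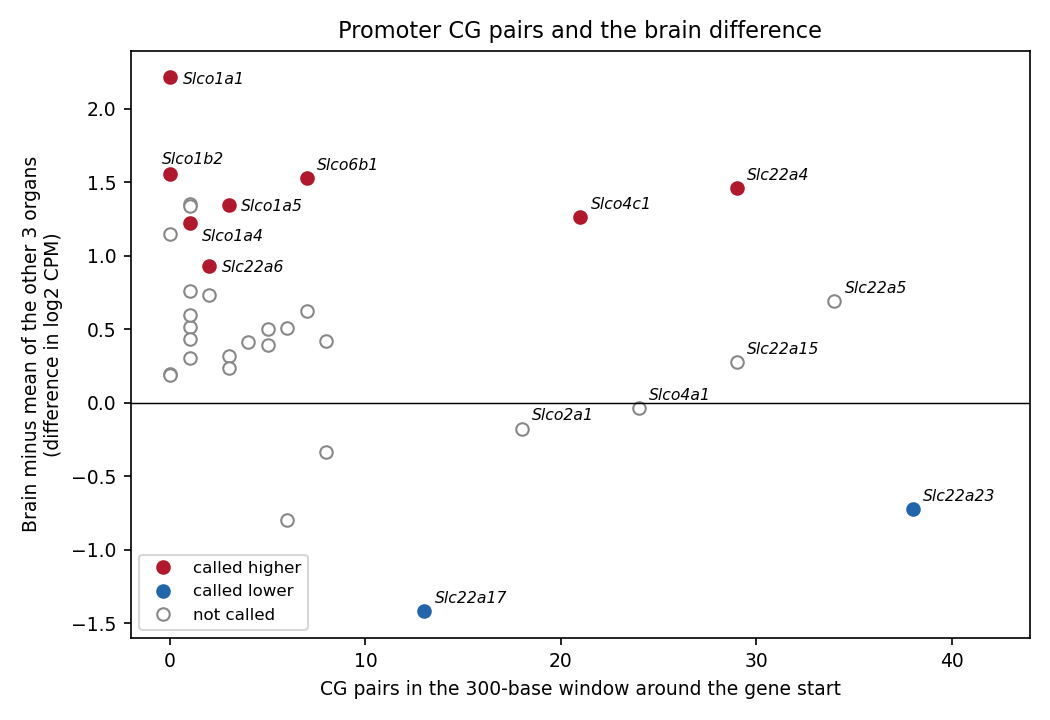
Each point is 1 of the 35 transporter genes with a promoter window. The horizontal axis counts CG pairs in the 300 bases, and the vertical axis gives the brain difference in log2 CPM, with red for called higher, blue for called lower and open points for not called. Genes called higher lie at 0 to 29 pairs, and the pair called lower at 13 and 38. Slco3a1, also called lower, has no listed window and is not drawn.

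The liver comparison set liver against the mean of brain, kidney and heart, to ask whether the genes of hepatic uptake stand apart there. Fewer genes were called than in brain, 2 higher and 4 lower of 40 (limma, Benjamini-Hochberg), against 11.8% of all tested genes called higher and 7.42% lower. The median difference was -0.27, against -0.10 over all tested genes, and 28 of the 40 were negative. Both liver libraries lay above all others for 4 genes and below for 5, against 11.7% and 10.3% of all tested genes. Without the FFPE liver library 0 genes were called higher and 1 lower in liver, without the frozen liver library 1 and 0, and without the FFPE kidney library 3 and 8. The split moved with the scaling, from 2 higher and 4 lower to 0 and 1 under quantile normalization and to 3 and 3 after centring on the median gene, which moved the median liver difference of all genes from -0.10 to 0.10. Each organ is set against a mean that contains the others, so the calls of Slc22a6, Slco6b1 and Slco3a1 in brain and in liver share libraries and are not independent.

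Slco3a1 had 209 CPM in FFPE liver and 163 CPM in frozen liver, against 104 in FFPE brain, 96.7 in frozen brain, 147 in FFPE kidney, 144 in frozen kidney, 111 in FFPE heart and 97.2 in frozen heart. Both liver libraries were highest, kidney came second, and brain and heart were lowest and overlapped each other. Its liver difference was 0.68 ± 0.14, 1.61-fold (limma adjusted p = 0.00278), and it was lost without the FFPE liver library (0.12) and under quantile normalization (0.226, adjusted p = 0.331), over a range of 2.65e-05 to 0.331. In brain, the call of Slco3a1 was lost under quantile normalization, where the difference was -0.10 (limma adjusted p = 0.626), and without the FFPE brain, frozen brain, FFPE heart, frozen heart or FFPE liver library (adjusted p = 0.202, 0.193, 0.059, 0.0528 and 0.0554), over a range of 0.00339 to 0.626.

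Slco2a1, the prostaglandin transporter (chr9:103007061-103096002), had 113 CPM in FFPE liver and 96.1 CPM in frozen liver, against 70.8 in FFPE brain, 65.4 in frozen brain, 75.6 in FFPE kidney, 61.0 in frozen kidney, 73.9 in FFPE heart and 55.8 in frozen heart. The liver pair lay above all others. The difference was 0.64 ± 0.16, 1.56-fold (limma adjusted p = 0.00912), and it was 0.31 under quantile normalization (adjusted p = 0.241). Without the FFPE or the frozen liver library the adjusted p was 0.112 and 0.131 (limma, range 0.000904 to 0.241).

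The 4 genes lower in liver were a pair of Slc22 anion transporters and a pair of Slco6 genes. Slc22a6 was lower in liver by the values given above, with a difference of -1.05 ± 0.25, 2.07-fold (limma adjusted p = 0.0074). Both liver libraries lay below all others. Slco6d1 (chr1:98421087-98516985) had 13.3 CPM in FFPE liver and 14.6 CPM in frozen liver, against 39.1 in FFPE brain, 29.2 in frozen brain, 25.5 in FFPE kidney, 42.2 in frozen kidney, 22.2 in FFPE heart and 23.2 in frozen heart. Liver was lowest without overlap. Its difference was -1.07 ± 0.27, 2.10-fold (limma adjusted p = 0.0118), and that of Slco6b1 was -1.26 ± 0.39, 2.40-fold (adjusted p = 0.0337), with frozen kidney between the liver libraries.

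Slc22a30, an anion transporter gene of the chromosome 19 cluster (chr19:8335371-8405111), had 2.65 CPM in FFPE liver and 0.876 CPM in frozen liver, against 6.87 in FFPE brain, 12.5 in frozen brain, 4.73 in FFPE kidney, 10.9 in frozen kidney, 7.15 in FFPE heart and 4.91 in frozen heart. The liver pair was lowest, on 7 and 3 reads. The difference of -2.15 ± 0.63 (limma adjusted p = 0.0266) depends on those few reads, and it was -1.16 without the frozen liver library (0.419). It was also not called under quantile normalization (0.128) or without the frozen brain, FFPE heart or frozen heart library (adjusted p = 0.0882, 0.0887 and 0.0528, limma, range 0.00301 to 0.419).

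Without the FFPE liver library the limma adjusted p was 0.0773 for Slc22a6, 0.121 for Slco6d1 and 0.0603 for Slco6b1, and without the frozen liver library 0.103, 0.114 and 0.442 in the same order of genes. The Slco6b1 difference was then -0.72. Slco6b1 also lost its call without the FFPE brain, frozen brain or frozen heart library (0.0579, 0.102 and 0.119), under quantile normalization (0.138) and after centring on the median gene (0.0617). Slco6d1 was not called under quantile normalization (limma adjusted p = 0.0503). Over all alternatives the adjusted p ran from 0.000185 to 0.103 for Slc22a6, from 0.00105 to 0.121 for Slco6d1 and from 0.000823 to 0.442 for Slco6b1. Without both kidney libraries 3 transporter genes were called higher and 12 lower in liver.

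**Figure D5:**
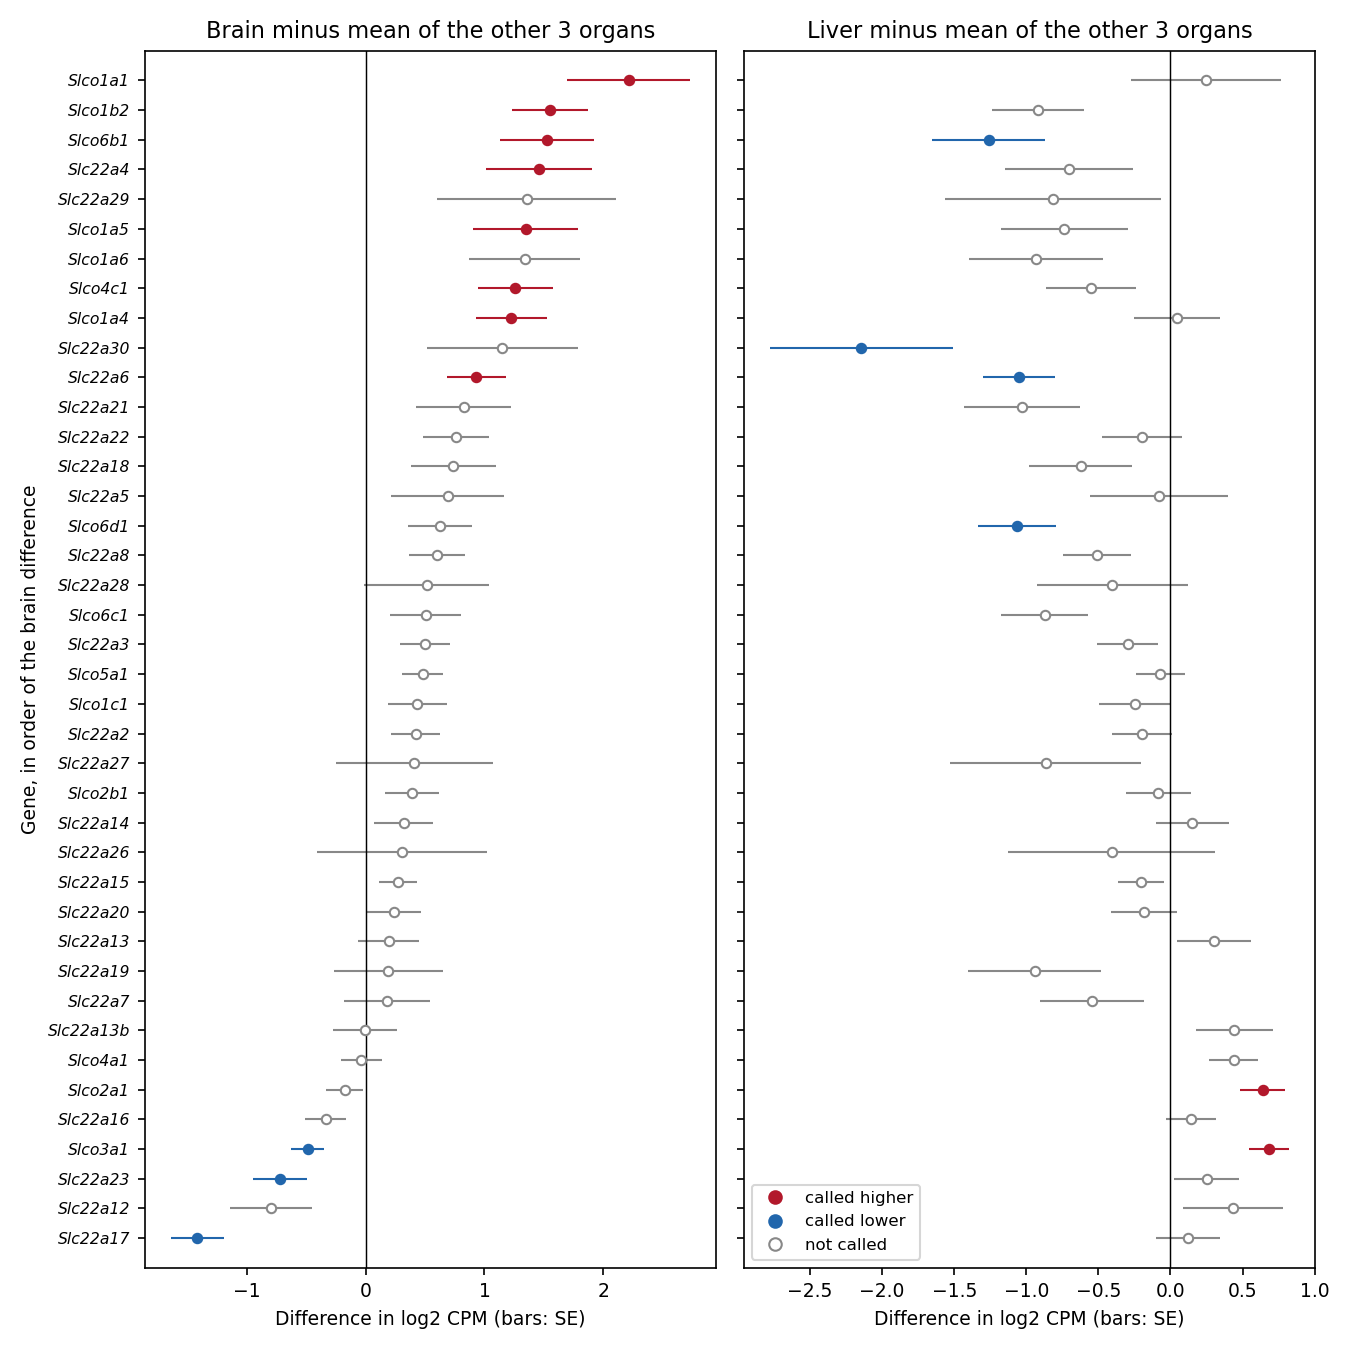
The left panel gives the brain difference and the right panel the liver difference (horizontal axes, log2 CPM, with SE bars) of each of the 40 genes (vertical axis, ordered by the brain difference), in red where called higher, blue where called lower and open where not called. In brain 32 points lie right of 0, and in liver 28 lie left of it, and both panels use the same libraries.

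Hepatocytes are known to use 5 of these genes. In liver 0 of the 5 were called by limma, against 11.8% of all tested genes called higher and 7.42% lower. An unadjusted limma p under 0.05 was reached by 1 of the 5, against 8460 of the 25982 tested genes. The median difference was -0.08, against -0.10 over all tested genes. Slco1b2 had -0.92 ± 0.32 (limma adjusted p = 0.0554), Slco1a1 0.25 ± 0.52 (0.789), Slco1a4 0.05 ± 0.30 (0.935), Slc22a27 -0.87 ± 0.66 (0.395) and Slco2b1, a carrier of steroid sulfates, -0.08 ± 0.22 (0.835). In brain 3 of these 5 genes of hepatocytes were called higher, against 8.61% of all tested genes, with a median of 1.23. They were Slco1b2, Slco1a1 and Slco1a4, which are counted above in the Slco1 cluster, so this is not a separate result. The summed level of the 8 hepatocyte markers was 121 to 170 CPM in liver, against 294 to 432 CPM in the other libraries, and their part in the liver calls was not tested.

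Kidney was set against the mean of the other organs and directly against liver, to ask about the members known to work in renal tubules. In kidney 0 of the 40 genes were called by limma, against 0.897% of all tested genes called higher and 0.566% lower, and voom weights gave 1 higher. An unadjusted limma p under 0.05 was reached by 8 of the 40, against 4843 of the 25982 tested genes. The smallest adjusted p was 0.0795, for Slc22a17, whose kidney libraries were the highest (difference 0.79 ± 0.22). Both kidney libraries lay above all others for 2 genes and below for 3, against 3.53% and 4.38% of all tested genes. Of the 11 members known in kidney, 0 were called, with a median of -0.29, against -0.02 over all tested genes. The secretory anion transporters Slc22a6 and Slc22a8 had -0.21 ± 0.25 and -0.19 ± 0.24, the cation transporter Slc22a2 -0.29 ± 0.21 and the urate transporter Slc22a12 -0.36 ± 0.35. The other seven ran from -1.07 (Slco1a6) to 0.68 (Slc22a30). Without the FFPE kidney library 1 gene was called higher and 6 lower, and without the frozen one 1 lower. The lowest difference was that of Slco1a1, at -1.83 ± 0.52 (limma adjusted p = 0.0822), on 7 and 9 reads in kidney.

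For kidney minus liver 0 of 40 were called, against 0.754% of tested genes called higher and 1.14% lower. An unadjusted limma p under 0.05 was reached by 5 of the 40, against 4659 of the 25982 tested genes. Both kidney libraries lay above both liver libraries for 8 genes and below them for 10, against 20.5% and 20.9% of all tested genes. Voom weights gave 1 higher, median centring 1 lower, and the fit without the FFPE kidney library 3 higher and 2 lower. Slco6d1 came nearest, at 1.23 ± 0.33, with 25.5 and 42.2 CPM in FFPE and frozen kidney, against 13.3 and 14.6 CPM in FFPE and frozen liver (limma adjusted p = 0.0645). Slc22a6 had 0.63 ± 0.30 (adjusted p = 0.289), and both of its kidney libraries lay above both liver libraries.

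In heart 0 of 40 were called by limma, against 0.162% of tested genes called higher and 1.97% lower. An unadjusted limma p under 0.05 was reached by 3 of the 40, against 3804 of the 25982 tested genes. Both heart libraries lay above all others for 1 gene and below for 0, against 4.78% and 3.47% of all tested genes. Voom weights and quantile normalization each gave 1 higher, the fit without both kidney libraries 2 higher and 1 lower, and the fit without the FFPE kidney library 1 higher and 2 lower. Slc22a23 had the smallest adjusted p, at 0.105 by limma, with a difference of 0.76 ± 0.23 and both heart libraries above all others.

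Preservation was compared as FFPE minus frozen over the 4 organs. Of the transporter genes, 0 of 40 were called by limma and 0 under every alternative run, against 0.62% of tested genes called higher and 0.735% lower. An unadjusted limma p under 0.05 was reached by 3 of the 40, against 2773 of the 25982 tested genes. All 4 FFPE libraries lay above or below all 4 frozen ones for 0 genes, against 1.31% and 1.84% of all tested genes. The median difference was -0.03 (against 0.02 over all tested genes), and differences ran from -0.91 (Slc22a19) to 0.81 (Slco1a5). The smallest adjusted p was that of Slc22a15, known in human as a transporter of zwitterions, at 0.35 ± 0.14 (limma adjusted p = 0.369), which was higher in FFPE in all 4 organs, by 0.24 in brain, 0.42 in liver, 0.45 in kidney and 0.28 in heart. Within single organs, with no test, the median FFPE minus frozen difference was -0.21 in brain, -0.01 in liver, 0.19 in kidney and -0.05 in heart.

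Other genes of organic ion and bile acid transport were counted in the same way. Of 32 such transporters and regulators, 2 were called higher and 0 lower in brain, against 8.61% and 12.8% of all tested genes, so the higher calls were near the background, with a median of 0.19: Slc17a3, a urate and organic anion exporter of kidney (0.78 ± 0.20, limma adjusted p = 0.0128), and Slc10a6, a carrier of sulfated steroids (0.86 ± 0.25, adjusted p = 0.0216). In liver 3 were higher and 5 lower, against 11.8% and 7.42% of all tested genes, with a median of -0.05. The higher ones included Pdzk1, a scaffold for transporters (0.86 ± 0.19, limma adjusted p = 0.00477), and Abcg5, a sterol exporter (0.72 ± 0.19, 0.0143). The lower ones included Nr1i3, a nuclear receptor that induces drug clearance (-1.21 ± 0.29, 0.00818), and Abcb11, the bile salt export pump (-0.61 ± 0.17, 0.0182). In heart 1 was lower, the drug efflux pump Abcb1a (-0.63 ± 0.15, limma adjusted p = 0.0446), against 1.97% of all tested genes. In kidney 0 were called, against 0.897% of all tested genes called higher and 0.566% lower.

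Of the 4 members known in brain or at its barriers, 2 were called higher (Slco1a4 and Slco1a5) and 1 lower (Slc22a17) in brain, with a median of 0.83, where 8.61% and 12.8% of all tested genes were called. The members not yet given were not called in brain. Slco5a1, an orphan member, had 0.48 ± 0.17 (limma adjusted p = 0.0586), with both brain libraries above all others. Slc22a18, an orphan transporter of the imprinted region on distal chromosome 7, had 0.74 ± 0.36 (adjusted p = 0.146), Slco2b1 0.39 ± 0.22, Slc22a14 0.32 ± 0.25 and Slc22a15 0.27 ± 0.16. Slco4a1, a thyroid hormone transporter, Slco2a1 and the pseudogene Slc22a13b had -0.03 ± 0.17, -0.18 ± 0.16 and -0.01 ± 0.27.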

How the data were processed

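DNA methylation signal (MeDIP-seq) was read from a table of log2 CPM values deposited by the authors, 8 columns for 27179 genes. The submitters' processing notes name the build mm10 and the tools Bowtie2, featureCounts and limma. Versions, aligner settings, the counted feature, strand and the treatment of multiply matching reads: not given in the sources used here. Input was not analysed here, so copy number and mappability also enter the values. The deposited steps gave back whole reads for 100% of values (tolerance 1e-04, with 0.5 added to each count). The labels' groups of 2 have no columns of their own, so the planned fit was replaced by organ plus preservation in limma (R 4.3.3, limma 3.58.1, moderated with a trend, two-sided), with 5 coefficients, 3 residual and 13.1 prior degrees of freedom, with Benjamini-Hochberg adjustment over the 25982 genes that reached 1 CPM in 2 or more libraries. The residual is the departure of an organ difference between preservations, so their interaction was not tested. Nothing in the labels says that samples came from separate animals, so p-values measure the spread between these libraries. Clusters joined genes within 500 kb. The fit code was run on simulated counts with the same spread in all genes and changes planted only in genes at or above the median level. The simulation had no departures between preservations, so it does not show how the fit performs on these libraries or on genes with few reads. Named with values were all called members, members listed as known in liver, kidney or brain, and up to 4 called genes per comparison from the list of other transporters. For 1 gene that the rule takes, values are not reported here, and it is left out of the counts of members. The members, lists and rule were chosen with earlier results of these data known. Alternatives were other filters, scalings, prior counts and weights, each library left out in turn, and both kidney libraries left out.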

Additional observations from a re-analysis of the deposited data

Results flagged for a closer look

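Slc22a20, an organic anion transporter known from the olfactory mucosa, had its highest FFPE level and its lowest frozen level in kidney. Its kidney difference from the mean of the other organs was 0.46 among FFPE libraries, where kidney lay above all 3 others, and -0.45 among frozen libraries, where kidney lay below all 3. The level was 44.9 CPM in FFPE kidney, against 37.6 in FFPE brain, 29.2 in FFPE liver and 31.8 in FFPE heart. In frozen tissue it was 29.8 CPM in kidney, against 45.4 in brain, 37.7 in liver and 39.3 in heart. Unequal signs were common in kidney, where 26 of 40 transporter genes and 57.3% of all tested genes had the same sign in both preservations, and some genes differed by more, such as Slc22a29, at 0.80 among FFPE and -0.59 among frozen libraries. The difference between the preservations was not tested, since each organ and preservation has 1 library.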

How the results depend on the processing

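All 17 calls of transporter genes kept their direction under all 255 recalculations run; 196 stayed past the threshold and 59 did not. All 17 calls held with the stricter filter of 3 CPM, with 2 reads added to each count, with voom weights, and without either or both kidney libraries, and 16 held without a filter, 15 after median centring and 9 under quantile normalization. Leaving out a brain library ended most calls in brain, and leaving out a liver library most in liver. An organ then has 1 library, which is assumed to vary like the others. Over the 8 libraries left out in turn, the called genes numbered 0 to 17 in brain (11 with all libraries), 1 to 11 in liver (6), 0 to 7 in kidney (0), 0 to 3 in heart (0), 0 to 5 for kidney minus liver (0) and 0 to 0 for FFPE minus frozen (0). Without both kidney libraries 18 genes were called in brain, 15 in liver and 3 in heart. Quantile normalization gave 1 in liver and 1 in heart, voom weights 1 each in kidney, heart and kidney minus liver, and median centring 1 for kidney minus liver. In brain, quantile normalization and voom weights each gave 12 higher and 3 lower. Of all 25982 tested genes, 2590 were then higher and 2871 lower in brain under quantile normalization, and 3969 and 3210 with voom weights. The cause was not tested. No paired analysis was possible because the columns carry no replicate number. Precision is limited by depth for the 6 genes with fewer than 10 reads in a library, whose SE were large, and by having 1 column per organ and preservation.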
